A study of Mus musculus with 2 samples.

Results

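Plasmacytoid dendritic cells (pDCs) are the bone marrow-derived dendritic cells best known for secreting type I interferon. They sense viral nucleic acids in endosomes through the Toll-like receptors TLR7 and TLR9, which signal through MYD88 and the kinases of the IRAK family to the transcription factor IRF7. Their identity rests on the transcription factor TCF4 (E2-2), with IRF8, SPIB, RUNX2 and BCL11A, and in the mouse they are recognised by the surface lectin Siglec-H and by BST2 (PDCA-1). Resting pDCs hold little or no interferon transcript, whereas many interferon-stimulated genes are transcribed at a basal level.

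pDCs were described here in single-cell RNA-seq of total bone marrow flushed from the femurs of 1 control and 1 DKO mouse, both 2 months old, with 1 Chromium Single Cell 3' library each. The DKO mouse was VavCre:Ddx41 fl/fl, cGas-/-, lacking cGas in every cell and Ddx41 in cells with Vav-driven Cre, a transgene active across hematopoietic cells and reported in endothelial cells and oocytes as well. The control is labelled WT, and the study's methods describe its controls as littermates with Ddx41 fl/fl, no VavCre and wild-type cGas. DDX41 is a DEAD-box RNA helicase, and cGAS is the cytosolic DNA sensor upstream of STING. There was 1 library for each genotype, which gives no measure of how mice of a genotype vary, so the genotypes were compared without a test. All intervals below are exact 95% intervals (Poisson for a level, binomial for a share and for a ratio of counts), and they cover counting error only.

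A barcode was taken as a pDC when it held at least 4 unique molecular identifiers (UMIs, each standing for 1 captured transcript) of Siglech, Ccr9 and Klk1 from at least 2 of these genes, under 3 UMIs of the B cell gene Cd79a, under 20% hemoglobin UMIs and under 5% UMIs of 5 neutrophil granule genes. This left 404 pDCs among 33691 barcodes with at least 500 UMIs and at most 20% mitochondrial UMIs. The marker counts alone were met by 347 control and 111 DKO barcodes, of which the hemoglobin limit removed 23 and 4, the Cd79a limit 8 and 4, and the neutrophil limit 13 and 2, some barcodes failing several. All 3 genes were seen in 161 of 303 control and 45 of 101 DKO pDCs, and nearly all others had Siglech with Ccr9 (125 and 51). At the edge of the rule, 13 control pDCs held exactly 4 UMIs of these genes and 7 control barcodes held 3, and the other pDC markers summed to 25716 and 19677 CPM (UMIs of a gene scaled to a common total) in them. The DKO library had 1 cell at 4 UMIs and 0 barcodes at 3.

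The libraries held 19764 control and 13927 DKO barcodes with medians of 4764.5 and 6954 UMIs, and the DKO pDCs were deeper as well, with a median of 7264 UMIs (range 2157 to 20276) against 5093 (range 972 to 44273). The pDCs together held 1690536 control and 781491 DKO UMIs, and medians of 2169 and 2811 genes per cell. Although 80 barcode sequences occurred in both libraries, 0 of them were pDCs. If all hemoglobin UMIs in pDCs came from free RNA, free RNA made up at most 2.20% of control and 0.650% of DKO pDC UMIs when it has the makeup of its whole library, and at most 4.29% of the control UMIs when it has the makeup of the control library's empty droplets, a value the DKO matrix cannot give because its lowest barcode has 500 UMIs.

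pDCs were 1.53% of the control barcodes (303 of 19764, interval 1.37% to 1.71%) and 0.725% of the DKO barcodes (101 of 13927, interval 0.591% to 0.881%). The share in the control library was higher, and the intervals did not overlap. The control matrix also listed barcodes under 500 UMIs, and the DKO matrix did not. The totals behind the shares may therefore not have been formed alike beyond the common minimum, which was not tested. Counted among barcodes with under 20% hemoglobin only, the shares were 2.62% (interval 2.33% to 2.92%) and 1.29% (interval 1.05% to 1.56%). The neighbouring populations differed less between the libraries. Conventional dendritic cells were 0.465% and 0.373%, Ly6C-high monocytes 4.66% and 4.0%, and B-lineage cells 10.6% and 10.3% of control and DKO barcodes. The DKO cells were deeper, so a fixed minimum of UMIs is met more easily there. With every barcode thinned to 2000 UMIs before the rule, and shallower barcodes left out of both the pDCs and the total, the pDC shares were 1.26% and 0.579%.

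**Figure D1:**
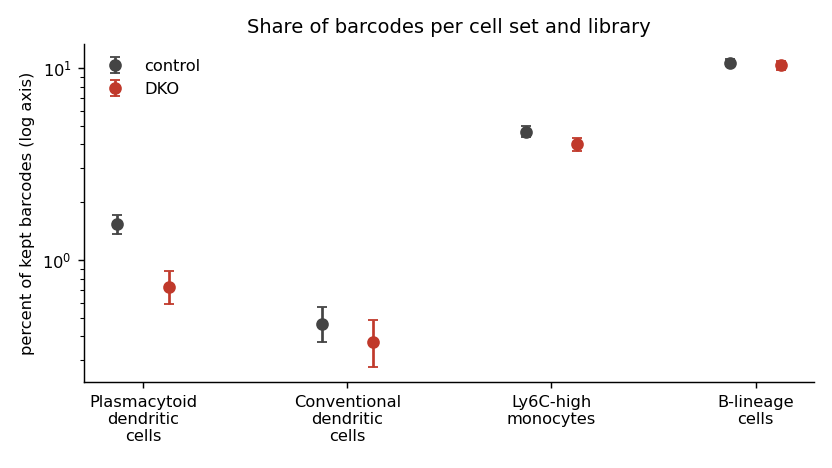
Share of kept barcodes (percent, log axis) assigned to pDCs, conventional dendritic cells, Ly6C-high monocytes and B-lineage cells in the control and the DKO library, with exact 95% binomial intervals that cover counting error only. Points for pDCs stand at 1.53% (control) and 0.725% (DKO), while B-lineage cells were 10.6% and 10.3%.

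The markers that the rule did not name went with the label. Irf8, the interferon regulatory factor required for dendritic cell development, was detected in 99.7% of control and 100% of DKO pDCs, with medians of 18 (range 0 to 60) and 26 (range 1 to 64) UMIs per cell. Tcf4, which encodes the factor that sets pDC identity, was present in every pDC of both libraries, with medians of 19 and 37 UMIs. Bst2 was found in 97.4% and 90.1% of pDCs. The full list of 22 pDC markers, which includes the 3 rule genes and so is a description, had UMIs of every member in both libraries. Control Ly6C-high monocytes and control B-lineage cells had UMIs of all 22 too, so presence alone does not set pDCs apart. The list summed to 26360 control and 26229 DKO CPM in pDCs and to 2011 and 2028 CPM in conventional dendritic cells. In monocytes it summed to 1343 and 1297 CPM and in B-lineage cells to 2902 and 2821 CPM. Several markers of the B, plasma and conventional dendritic lineages were absent, while others of the same lists were present. Ms4a1 (CD20) of B cells, Prdm1 and Tnfrsf17 of plasma cells and Xcr1 and Itgae of conventional dendritic cells had 0 UMIs in pDCs of both libraries. Xcr1 and Itgae were among 8 conventional dendritic markers, which summed to 438 and 417 CPM, and 8 B cell markers summed to 62.1 and 99.8 CPM. The other 5 of 7 plasma cell markers, Mzb1 among them, had UMIs, and the list summed to 242 and 116 CPM.

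Genes of myeloid and erythroid lineages were present at higher levels, more so in the control pDCs. The summed level of 7 monocyte markers was 1466 control and 916 DKO CPM, that of 9 neutrophil markers 1171 and 843 CPM, and that of 8 erythroid markers 6371 and 2389 CPM. Markers of granulocyte-monocyte progenitors summed to 329 and 37.1 CPM. In addition, 10 control pDCs and 1 DKO pDC held at least 10 UMIs of Lyz2, the myeloid lysozyme gene, and the 10 control cells had a median of 18984 UMIs. By the makeup of each library, free RNA could supply up to 92.1% of control and 93.1% of DKO Hbb-bs UMIs in pDCs. For S100a8 the limits were 100% and 40.9%, and for S100a9 100% and 36.1%. Alternatives left out these cells or pDCs with other-lineage markers, subtracted free RNA, or scaled without hemoglobin and neutrophil granule genes. The part of these markers in the results below was not otherwise tested. A second subset, the ribosomal-low cells, was poor in ribosomal protein transcripts. Ribosomal protein genes made up under 5% of the UMIs in 8 control pDCs (2.64%) and 11 DKO pDCs (10.9%), whereas their median over all pDCs was 19.4% and 18%. Of these, 7 and 9 lacked Bst2, and the nuclear RNA Malat1 took 1.88% and 1.41% of their UMIs against 0.392% and 0.282% in the others.

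Against all other kept barcodes, the genes with the highest pDC-to-rest ratio were, in order, Klk1, Gm21762, Grm8, Siglech, Havcr1, Ccr9, Cd209d, Ncald, Cd300c and Cox6a2. This is a description, since the pDCs were chosen by 3 of these genes. Siglech was at 1757 control and 2035 DKO CPM in pDCs, against 21.8 and 3.14 CPM in conventional dendritic cells, from which pDCs had been left out. Grm8, which encodes a metabotropic glutamate receptor, reached 764 and 1153 CPM in pDCs, with 2.81 and 1.3 CPM in the rest of the libraries. Havcr1, which encodes the phosphatidylserine receptor TIM-1, was at 103 and 155 CPM. Cox6a2, a subunit of cytochrome c oxidase otherwise typical of muscle, was at 1130 and 1111 CPM.

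**Figure D2:**
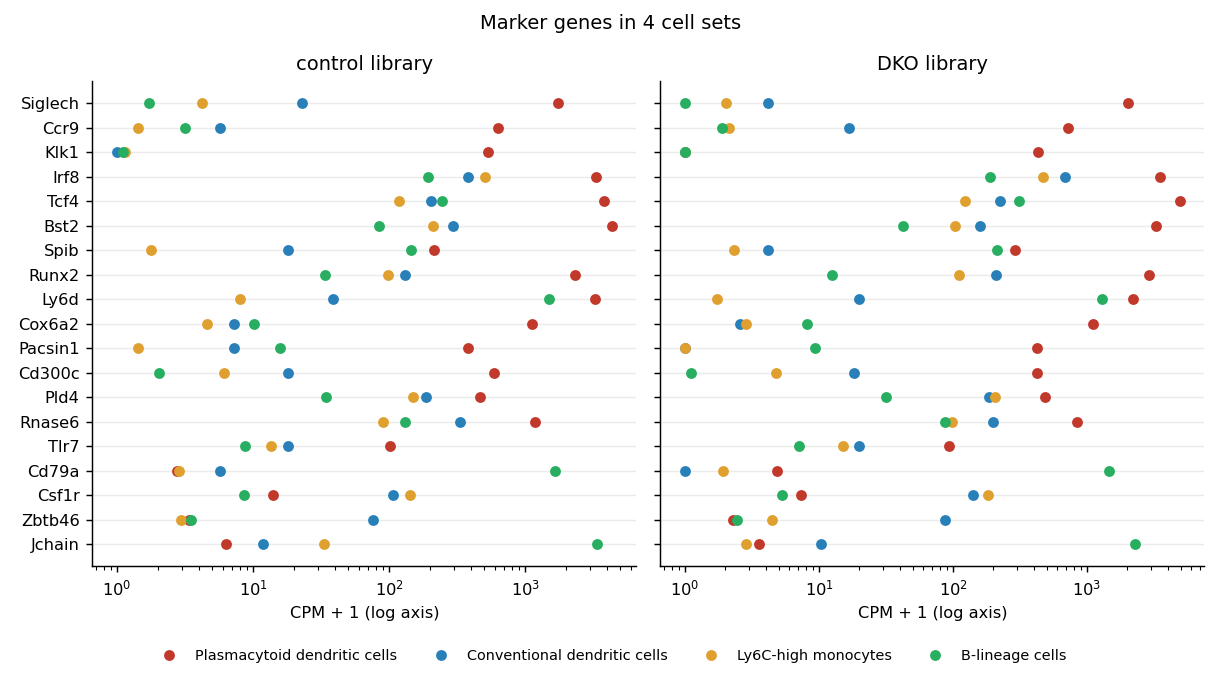
Level of 19 marker genes (CPM plus 1, log axis) in pDCs, conventional dendritic cells, Ly6C-high monocytes and B-lineage cells, with the control library at left and the DKO library at right. pDCs carry Irf8, Tcf4, Bst2 and Runx2 above the other 3 cell sets, whereas Cd79a, Csf1r, Zbtb46 and Jchain are highest in another set.

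The targeted genes were examined first as a check of the labels. Ddx41 had 41 UMIs in control pDCs and 6 in DKO pDCs, which was 24.3 and 7.68 CPM and a ratio of DKO over control of -1.47 on the log2 scale (interval -3.19 to -0.42). Cgas had 17 and 2 UMIs, with a log2 ratio of -1.47 (interval -5.13 to 0.10). Both were scarce in pDCs, and the Cgas interval included 0. The Ly6C-high monocytes gave a check on more UMIs, with 639 and 197 UMIs of Ddx41 (log2 ratio -1.15, interval -1.39 to -0.92) and 561 and 277 UMIs of Cgas (-0.47, interval -0.69 to -0.27). Genes spanning 5 to 20 kb, as both do, had a median log2 ratio of -0.17 in monocytes. Whether the 3' tags counted here lie outside the deleted parts is not given in the sources used here, so remaining UMIs do not show intact transcripts.

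Genes of both genotypes were then compared as the log2 ratio of their summed counts, as CPM with 1 count added, over 3576 genes with a mean of at least 50 CPM. Of these, 334 genes (9.34%) were at least 1.5-fold higher in the DKO pDCs and 161 genes (4.5%) at least 1.5-fold lower, a log2 ratio of 0.58 in either direction. These percentages are the background for the counts of list members below. Intervals lay wholly past this fold in 25 and 29 genes. The median over all genes was 0.11, and setting it to 0 gave 187 higher and 258 lower genes in place of 334 and 161, so 42.0% rather than 67.5% of the genes past the fold were the higher ones. List medians below are therefore to be read against 0.11.

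The ratio also moved with gene length. Genes spanning up to 5 kb had a median log2 ratio of -0.23 in pDCs, those of 5 to 20 kb -0.18, those of 20 to 50 kb 0.12, those of 50 to 100 kb 0.29 and longer genes 0.37. The same order was found in conventional dendritic cells (-0.19 to 0.40), monocytes (-0.21 to 0.39) and B-lineage cells (-0.23 to 0.35). With the median of each of 20 length bins subtracted, 144 genes were higher and 146 lower. Gene values after this step are given below as length-adjusted, and the part of the trend in any single result was not tested.

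**Figure D3:**
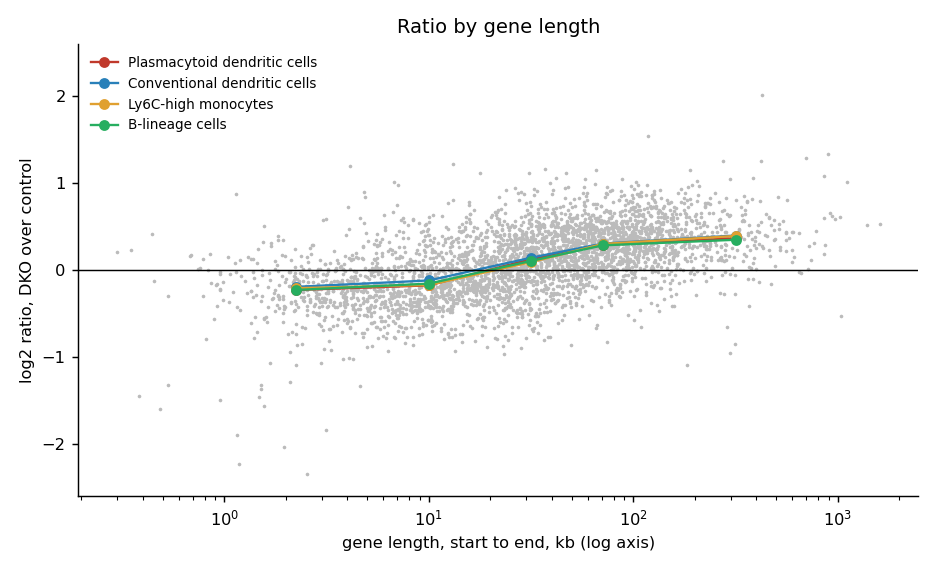
Median log2 ratio of DKO over control by gene length (kb, log axis) in pDCs and 3 other cell sets, in 5 length bins, with the position of the first and last bin, which are open-ended, chosen for display. In pDCs the medians run from -0.23 for genes up to 5 kb to 0.37 for genes over 100 kb, and the other sets follow the same order.

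Of the pDC transcription factors, 16 of 23 passed the level minimum, with a median log2 ratio of 0.35, and 3 were at least 1.5-fold higher and 0 lower. The 3 were Cbfa2t3 (ETO2), a corepressor that acts with TCF4 in pDCs, Runx1 and the lymphoid factor Ikzf1. Cbfa2t3 had 257 control and 218 DKO UMIs (log2 ratio 0.88, interval 0.61 to 1.14). Runx1 had 492 and 380 UMIs (0.74, interval 0.54 to 0.94) and Ikzf1 898 and 664 UMIs (0.68, interval 0.53 to 0.82). The corresponding ratios in monocytes were 0.41, 0.49 and 0.55. Tcf4, with 6468 and 3839 UMIs, had a log2 ratio of 0.36 (interval 0.30 to 0.42), Runx2 0.32 and Bcl11a 0.40. These are long genes, and their length-adjusted ratios were -0.01, -0.05 and 0.04. Irf8, with 5608 and 2726 UMIs, was at 0.07 (interval 0.01 to 0.14), and Spib, a short gene and an ETS factor needed for pDC development, was at 0.46 (interval 0.21 to 0.70; length-adjusted 0.69). The length-adjusted median of the list was 0.06, with 1 gene (Spib) past the fold. Id2, the inhibitor that opposes TCF4 in conventional dendritic cells, was below the level minimum with 35 and 6 UMIs.

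Surface receptors and their adaptors had a median of -0.17 over 18 tested genes, with 0 higher and 2 lower. The lower ones were Ly6c2, which encodes the Ly6C antigen, and the coreceptor gene Cd4. For Ly6c2, 3037 UMIs were counted in control and 689 in DKO pDCs, giving -1.03 (interval -1.15 to -0.91; length-adjusted -0.79), and the gene was detected in 93.1% of control and 78.2% of DKO pDCs. In cells thinned to 2000 UMIs these shares were 87.4% (interval 83.0% to 91.0%) and 64.4% (interval 54.2% to 73.6%). In Ly6C-high monocytes, whose definition used the gene, Ly6c2 was at -0.12 (interval -0.15 to -0.09) and in conventional dendritic cells at -1.20 (interval -1.66 to -0.78). Cd4 had 404 and 110 UMIs (-0.75, interval -1.08 to -0.46). Ly6d, a marker shared by pDCs and lymphoid progenitors, was at -0.56 (interval -0.64 to -0.49), just inside the fold, and Bst2 at -0.41 (interval -0.48 to -0.34). The signalling adaptors Tyrobp (DAP12) and Fcer1g, through which Siglec-H and other receptors signal, were at -0.18 and -0.52. Siglech itself was at 0.21, a value that the choice of cells touches.

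The endosomal TLR and IRF7 pathway had a median of 0.13 over 18 tested genes, with 3 higher and 1 lower. The higher genes were Slc15a4, the lysosomal transporter needed for TLR7 and TLR9 signalling (96 and 76 UMIs, log2 ratio 0.78, interval 0.32 to 1.23), Irak1 (94 and 66 UMIs, 0.61, interval 0.13 to 1.07) and Chuk, which encodes IKK-alpha (68 and 51 UMIs, 0.71, interval 0.15 to 1.24; without the ribosomal-low cells 0.58, interval -0.02 to 1.14). All 3 rest on under 100 UMIs per library. Tlr7 had 171 and 72 UMIs (-0.12, interval -0.55 to 0.27), and Unc93b1, the chaperone of endosomal TLRs, 1250 and 515 (-0.16, interval -0.32 to -0.02). Tlr9 had 8 and 5 UMIs, too few for a comparison. The lower gene was Irf7, the factor through which pDCs induce interferon, with 215 and 60 UMIs (-0.71, interval -1.17 to -0.31; length-adjusted -0.48). It was lower in the other sets as well, at -1.67 in conventional dendritic cells, -1.25 in monocytes and -1.52 in B-lineage cells.

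Interferon transcripts themselves were nearly absent. Of 21 interferon genes, which include the Ifna genes and Ifnb1, 19 had 0 UMIs in the pDCs of both libraries, Ifnk had 1 DKO UMI and Ifng 1 control UMI. Taking a count of 0 to allow at most 3 counts, the limits were 1.77 CPM in control and 3.84 CPM in DKO pDCs. The cytosolic nucleic acid sensors were sparse too, with 7 of 22 genes passing the level minimum, a median of 0.11, and 0 genes past the fold. Tmem173, which encodes STING, had 103 and 52 UMIs (0.14, interval -0.38 to 0.62). Aim2, an inflammasome DNA sensor, had 191 and 101 UMIs (0.20, interval -0.17 to 0.55), and the nucleotide phosphohydrolase gene Samhd1 386 and 127 (-0.48, interval -0.79 to -0.20). Below the minimum, Ifi204 had 37 and 2 UMIs and Zbp1 25 and 3.

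Interferon-stimulated genes were lower in the DKO pDCs as a list. Their median log2 ratio was -0.30 over the 29 that passed the level minimum of 57 in the files, with 0 higher and 8 lower, beside 4.5% of all genes that were lower. Length-adjusted, the median was -0.19 and 6 genes were lower. Apart from Ifitm2 and Ifitm3, the gene with the lowest ratio of the 8 was Ly6a, which encodes the stem cell antigen Sca-1 and is induced by interferon. Its 1128 UMIs in control and 145 in DKO pDCs, at 667 and 186 CPM, gave a log2 ratio of -1.84 (interval -2.11 to -1.60; length-adjusted -1.60). Its UMIs per cell had medians of 2 (range 0 to 30) and 0 (range 0 to 23), and it was seen in 71.6% of control and 26.7% of DKO pDCs. In cells thinned to 2000 UMIs it was seen in 54.6% of control pDCs (160 of 293, interval 48.7% to 60.4%) and 14.9% of DKO pDCs (15 of 101, interval 8.56% to 23.3%), with 1.75% and 0.360% of Ly6C-high monocytes as the background. Of the 145 DKO UMIs, 23 lay in 1 cell and 60% in 5 cells, whereas 5 cells held 11.1% of the control UMIs. Across 14 alternative settings the ratio ranged from -1.98 to -1.58. In B-lineage cells Ly6a was at -0.22 (interval -0.32 to -0.13), in conventional dendritic cells at -2.31 (29 and 5 UMIs) and in monocytes at -2.55 (187 and 21 UMIs).

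Ifi27l2a, a small interferon-induced mitochondrial membrane protein gene, had 1230 control and 226 DKO UMIs (log2 ratio -1.33, interval -1.54 to -1.13). It was seen in 55.6% of control and 33.7% of DKO pDCs thinned to 2000 UMIs. Its ratio was -2.29 in conventional dendritic cells, -1.21 in monocytes and -1.72 in B-lineage cells, so it was lower in all 4 sets. The restriction genes Slfn5 (-0.74, interval -1.20 to -0.34) and Slfn2 (-0.65, interval -1.17 to -0.20) and the peptide transporter gene Tap1 (-0.63, interval -1.11 to -0.21) were past the fold with smaller counts. In DKO pDCs, 5 cells held 66.7% of the Slfn5 UMIs and 48.9% of the Slfn2 UMIs. Ifitm3 (324 and 31 UMIs, -2.23) and Ifitm2 (160 and 19 UMIs, -1.90), which are close relatives and restrict viral entry, completed the 8 with Irf7. However, 68.5% and 71.3% of their control UMIs lay in the 10 cells with at least 10 Lyz2 UMIs. Without the Lyz2-high cells of both libraries Ifitm3 was at -2.91, on 6 remaining DKO UMIs, and Ifitm2 at -0.88 (interval -2.02 to -0.03). Both would then lie under the level minimum. The place of these 2 genes among the tested and the 8 lower genes thus rests on the Lyz2-high cells. Isg15, which encodes a ubiquitin-like modifier and was under the level minimum, had 122 and 21 UMIs (-1.37, interval -2.17 to -0.75). Stat2, a factor that carries the interferon signal, was at -0.23 (interval -0.56 to 0.08), and Trim30a and Rnf213 at 0.01 and 0.05. The list median was -0.56 in conventional dendritic cells, -0.25 in monocytes and -0.35 in B-lineage cells, against all-gene medians of 0.13, 0.09 and 0.11.

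**Figure D4:**
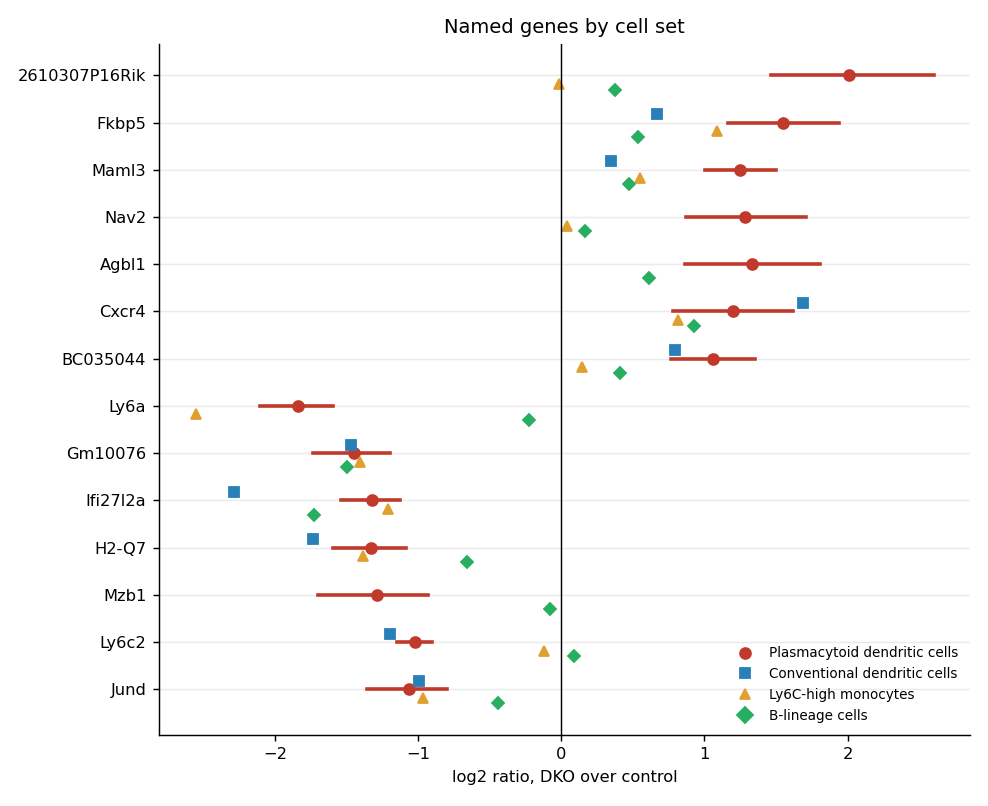
Log2 ratio of DKO over control with exact 95% intervals (counting error only) for single genes in pDCs, with the values of the other 3 cell sets shown where their interval was finite and under 2 log2 units wide. Ly6a and Ly6c2 lie at -1.84 and -1.03 in pDCs, and Cxcr4 at 1.20.

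The interferon-stimulated response element, to which STAT and IRF factors bind, holds the letters GAAANNGAAA. These were searched on both strands in the 250 bases before each RefSeq start (build GRCm38.p6), counting overlapping matches. They occurred in 978 of 32851 windows (2.98%), in 936 of 27025 genes with a window (3.46%) and in 6 of the 23 tested interferon-stimulated genes that had a window (26.1%). Of the 8 lower genes, 6 had a window and 2 of these, Ifitm2 and Slfn5, held the letters. The 6 genes are shown because they hold the letters, with the match in capitals and each stretch given in the direction of transcription.
Ifitm2: ccaacagGAAAAGGAAAttgctag
Slfn5: tcaaagtGAAAAAGAAAaaaaaaa
Bst2: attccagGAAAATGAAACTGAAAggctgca
Stat2: accctggTTTCAGTTTCctttccc
Trim30a: tctttagTTTCTTTTTCtcagttc
Slfn8: tgagcagTTTCGTTTTCcccaaaa
The stretches lie at chr7:140955991-140956014 on the minus strand for Ifitm2, chr11:82951940-82951963 on the plus strand for Slfn5, chr8:71537580-71537609 on the minus strand for Bst2, chr10:128270269-128270292 on the plus strand for Stat2, chr7:104465213-104465236 on the minus strand for Trim30a and chr11:83020842-83020865 on the minus strand for Slfn8. Bst2 holds 2 overlapping matches, and in Stat2, Trim30a and Slfn8 the match is on the opposite strand. The log2 ratios were -1.90 for Ifitm2, -0.74 for Slfn5, -0.41 for Bst2, -0.23 for Stat2, 0.01 for Trim30a and 0.21 for Slfn8. The intervals of Stat2 (-0.56 to 0.08), Trim30a (-0.19 to 0.20) and Slfn8 (-0.27 to 0.65) included 0. Without the Lyz2-high cells Ifitm2 was at -0.88. A match describes the letters and is not a measured binding site.

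MHC class I genes had the lowest list median in pDCs, -0.51 over 12 tested genes, with 0 higher and 5 lower. The classical heavy chains H2-K1 (2808 and 786 UMIs, log2 ratio -0.72, interval -0.84 to -0.61) and H2-D1 (2187 and 594 UMIs, -0.77, interval -0.90 to -0.64) were both lower, and B2m, the shared light chain, was at -0.48 (interval -0.59 to -0.37). The nonclassical genes H2-Q7 (819 and 150 UMIs, -1.33, interval -1.60 to -1.08) and H2-T22 (245 and 65 UMIs, -0.78, interval -1.22 to -0.40) were lower too, although H2-Q7 shares sequence with other Q-region genes and its reads may be split among them. Tap1 was the remaining one, and it is also in the interferon list, as are Psmb8 and Psmb9. Length-adjusted, the median was -0.28 and only H2-Q7 of the 12 remained past the fold. H2-K1 and H2-D1 were at -0.76 and -0.62 in conventional dendritic cells, at -0.39 and -0.22 in monocytes and at -0.31 and -0.30 in B-lineage cells. The list median was -0.44 in conventional dendritic cells, with 5 of 12 lower, -0.22 in monocytes and -0.31 in B-lineage cells.

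MHC class II genes, which pDCs express below the level of conventional dendritic cells, had a median of -0.40 over 8 tested genes, with 2 lower. H2-Eb1 (1100 and 332 UMIs) was at -0.61 (interval -0.80 to -0.44) and H2-Oa, part of a peptide-loading inhibitor, at -0.62 (interval -1.15 to -0.17). Without the ribosomal-low cells both were inside the fold, at -0.55 and -0.56. H2-Aa, H2-Ab1 and the invariant chain gene Cd74 were at -0.45, -0.30 and -0.34. Length-adjusted, the median was -0.22 and 0 genes passed the fold.

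**Figure D5:**
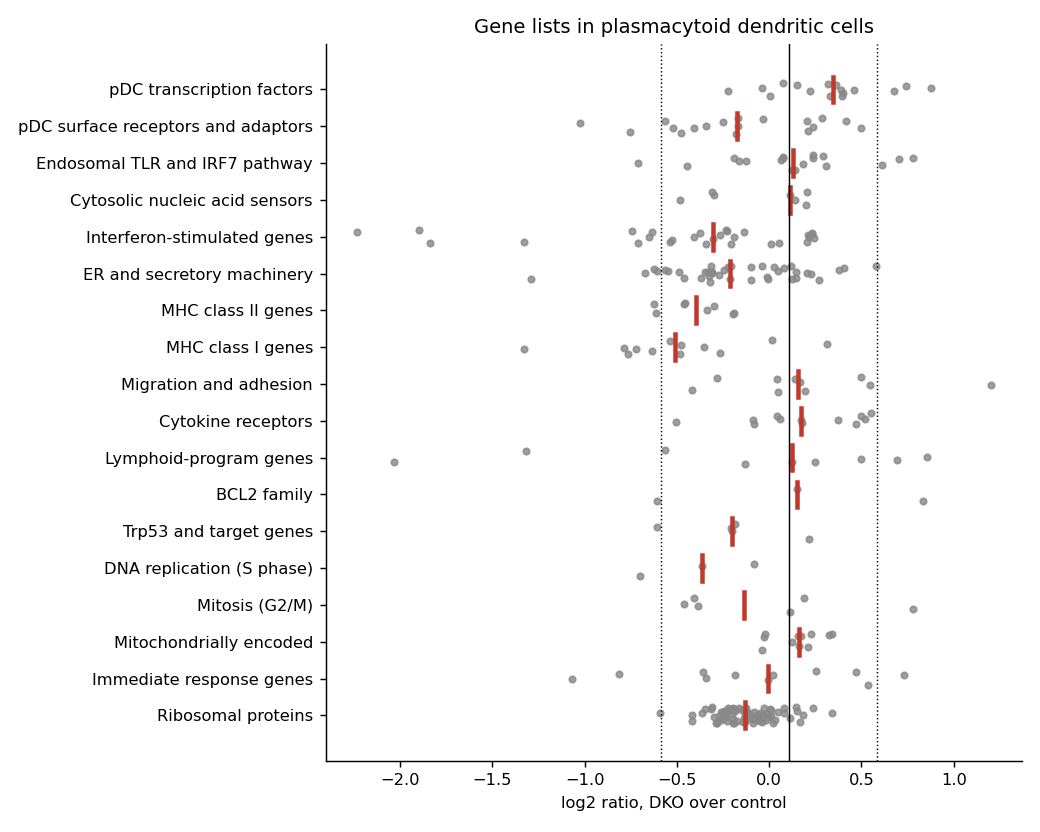
Log2 ratio of DKO over control in pDCs for tested genes of the fixed lists, with the medians over all tested genes of a list. The solid line marks the median over all genes (0.11) and the dotted lines 1.5-fold (0.58 in either direction), and the medians run from -0.51 for MHC class I genes to 0.35 for the pDC transcription factors.

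The endoplasmic reticulum and secretory machinery, on which a cell that secretes large amounts of interferon depends, had a median of -0.21 over 39 tested genes, with 0 of 39 higher and 4 lower, beside 9.34% and 4.5% of all genes. Length-adjusted, the median was -0.08 and 3 were lower. Mzb1, an ER chaperone of B cells, plasma cells and pDCs, stood lowest. It had 369 control and 69 DKO UMIs (log2 ratio -1.29, interval -1.70 to -0.93), and it was seen in 31.7% of control and 13.9% of DKO pDCs thinned to 2000 UMIs (intervals 26.4% to 37.4% and 7.79% to 22.2%), against 0.328% and 0% of monocytes. In B-lineage cells, which had 5834 and 5163 UMIs of it, Mzb1 was at -0.08 (interval -0.13 to -0.02). Herpud1, a component of ER-associated degradation, was at -0.67 (interval -0.97 to -0.39) in pDCs. Sec11a, a signal peptidase subunit, and Sdf2l1, an ER chaperone cofactor, were at -0.61 and -0.62. For Sdf2l1, 27.5% of the control UMIs lay in the Lyz2-high cells, and without these cells it was at -0.31 (interval -0.97 to 0.28). Xbp1, the transcription factor that expands the ER, was at -0.04 (interval -0.32 to 0.23) and the chaperone gene Hspa5 (BiP) at -0.01 (interval -0.24 to 0.21).

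Among 12 tested migration and adhesion genes the median was 0.15, and 1 was past the fold. This was Cxcr4, the CXCL12 receptor that holds cells in the marrow, with 95 control and 101 DKO UMIs, 56.2 and 129 CPM (log2 ratio 1.20, interval 0.78 to 1.62; length-adjusted 1.43). Unthinned, it was seen in 20.5% of control and 50.5% of the deeper DKO pDCs. After thinning it was seen in 8.87% (interval 5.88% to 12.7%) and 16.8% (interval 10.1% to 25.6%), and these intervals overlapped. A higher Cxcr4 ratio was common to the other sets, at 1.69 in conventional dendritic cells, 0.82 in monocytes and 0.93 in B-lineage cells. Selplg, the P-selectin ligand gene, was at 0.50 (interval 0.31 to 0.67) and Itgb7 at 0.55 (interval 0.22 to 0.86). The gut-homing receptor gene Ccr9 was at 0.17 but was used in the rule.

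The 12 tested cytokine receptor genes had a median of 0.17, with 0 past the fold in either direction. Flt3, the receptor for the principal pDC growth factor, was at 0.47 (352 and 225 UMIs, interval 0.22 to 0.71). The interferon receptor chains Ifnar1 and Ifnar2 were at -0.09 (interval -0.41 to 0.22) and -0.08 (interval -0.26 to 0.09), so a difference past 1.5-fold lies outside both intervals as far as counting error goes.

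Lymphoid-program genes, several of which pDCs share with early B cells, were split. Their median was 0.12 over 9 tested genes, with 2 higher and 2 lower. Dntt, the terminal transferase, had 235 and 175 UMIs (log2 ratio 0.69, interval 0.40 to 0.98) and Notch1 163 and 136 (0.85, interval 0.51 to 1.19). Of the DKO Dntt UMIs, 61 lay in 1 cell and 47.4% in 5 cells, without the Lyz2-high cells the ratio was 0.58 and just inside the fold, and length-adjusted 0 genes of the list were higher and 2 lower. The immunoglobulin genes Igkc (393 and 72 UMIs, -1.32, interval -1.72 to -0.97) and Iglc2 (158 and 17 UMIs, -2.03, interval -2.92 to -1.38) were the lower ones. Free RNA could supply up to 25.7% of control and 24.0% of DKO Igkc UMIs by the library's makeup and 38.3% of control by that of its empty droplets, Iglc2 has near-identical copies, and the part of free RNA in the difference was not tested. Ighm was at 0.12 (interval -0.01 to 0.26), and Il7r at 0.50 (interval 0.24 to 0.74).

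Genes of survival and growth gave few differences. Bcl2 was at 0.83 (84 and 69 UMIs, interval 0.35 to 1.31; length-adjusted 0.46), Mcl1 at 0.15 and Bax, a proapoptotic gene and a Trp53 target, at -0.61 (240 and 72 UMIs, interval -1.02 to -0.24), or -0.57 and so inside the fold without the Lyz2-high cells. Of the DKO Bcl2 UMIs, 52.2% lay in 5 cells and 19 in 1 cell. The 5 tested genes of the Trp53 list had a median of -0.20, with Bax past the fold, and Cdkn1a had 14 and 5 UMIs. pDCs that leave the progenitor stage divide little. After thinning, at least 2 UMIs of the mitosis list were found in 34 of 293 control pDCs (11.6%, interval 8.17% to 15.8%) and 8 of 101 DKO pDCs (7.92%, interval 3.48% to 15.0%), and unthinned in 22.8% and 26.7%. The intervals overlapped. The medians were -0.14 over 6 tested mitosis genes, with Top2a past the fold at 0.78, and -0.37 over 3 tested replication genes, with Dut at -0.70 (-0.27 without the Lyz2-high cells, interval -0.82 to 0.22). For Top2a, 65.8% of the control UMIs lay in the Lyz2-high cells and 92.4% of the DKO UMIs in 5 cells, and it was at 2.16 without the former. Without the Lyz2-high cells the medians were 1.04 and 0.15, the opposite side of 0, so no direction is given for either list.

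Immediate response genes had a median of -0.01 over 11 tested genes, with Zfp36l2 higher (0.73, interval 0.52 to 0.94) and Jund (606 and 133 UMIs, -1.07, interval -1.36 to -0.80) and Nfkbia (-0.81, interval -1.32 to -0.37) lower. The AP-1 gene Jund was lower in the other sets also, at -1.0, -0.96 and -0.44 in conventional dendritic cells, monocytes and B-lineage cells. The 11 tested mitochondrially encoded genes had a median of 0.16 and 82 ribosomal protein genes one of -0.13, with 0 of the former and 2 of the latter past the fold. The ribosomal median was 0.10 after length adjustment. Among its members, Rpl35 was at -0.59 and Rps28 at 0.34.

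By the distance of the interval from 0, the genes lowest in DKO pDCs included, beyond those above, the predicted gene Gm10076. It had 809 control and 136 DKO UMIs (log2 ratio -1.45, interval -1.73 to -1.2), and its ratio lay between -1.41 and -1.5 in the other sets. The genes highest in DKO pDCs included 2610307P16Rik, Fkbp5, Maml3, Nav2, Agbl1, Cxcr4 and BC035044. Fkbp5, the glucocorticoid-induced cochaperone FKBP51, had 99 and 134 UMIs (1.55, interval 1.16 to 1.94; length-adjusted 1.18) in 22.1% of control and 52.5% of DKO pDCs. These shares are of unthinned cells, and the DKO pDCs were deeper. Fkbp5 was higher in monocytes (1.09) and B-lineage cells (0.54) too. In conventional dendritic cells it was at 0.67 (interval -0.07 to 1.47). Nav2 was at 1.29 and BC035044 at 1.06. Others were carried by few cells. For 2610307P16Rik (42 and 79 UMIs, 2.01) 77.2% of the DKO UMIs lay in 5 cells, 36 of them in 1 cell, and for the Notch coactivator gene Maml3 (257 and 283 UMIs, 1.25) 52.3% did, with 63 UMIs in 1 cell. Agbl1, at 1.33, had 59.5% of its DKO UMIs in 5 cells and 19 in 1 cell.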

How the data were processed

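Single-cell libraries of 1 control and 1 DKO mouse were analysed from the deposited gene-by-barcode matrices of UMI counts, which the authors made with Cell Ranger (7.1.0 in the file headers). The submitters' processing notes name mm10. The counts are whole numbers for 32285 genes and are not normalised. The control matrix lists 1518290 barcodes, 1194299 of them with a UMI, and the DKO matrix 14142, the lowest with 500 UMIs, so the minimum of 500 UMIs was applied to both. The cells, gene lists and named genes were chosen with earlier results of these data known.

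pDCs and the 3 comparison sets were taken by marker counts. Conventional dendritic cells had at least 5 UMIs of H2-Aa, H2-Ab1 and H2-Eb1 and at least 3 UMIs from at least 2 of Cd209a, Clec9a, Xcr1, Clec10a, Itgax and Zbtb46. Ly6C-high monocytes had at least 6 UMIs from at least 3 of Ly6c2, F13a1, Ccr2 and Ms4a6c, with Csf1r. B-lineage cells had at least 3 Cd79a UMIs and at most 1 UMI of the pDC rule genes. UMIs were summed per library and set, scaled to CPM, and compared as log2 ratios with 1 count added, with conditional binomial intervals. Doublets were left in (Scrublet, in scanpy, was an alternative). Cells were thinned to 2000 UMIs (seed 1) for shares of cells, leaving out 10 control and 0 DKO pDCs. Named genes were the targets, the rule genes, list members as examples, the 10 genes leading over all other barcodes and the 8 per direction whose interval lay farthest from 0, unless their pDC level was below that of the library. A few genes that met this rule are not reported here, while counts and medians include them. Gene lengths and positions came from GENCODE M21 (32235 identifiers matched). Scripts were tested on simulated counts. Python 3.11.15 was run with matplotlib 3.10.9, scanpy 1.11.5, pandas 2.3.3, SciPy 1.17.1 and NumPy 2.4.6. Promoter sequences came from RefSeq.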

Additional observations from a re-analysis of the deposited data

Results flagged for a closer look

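Not all named genes were compared between pDCs and the other cell sets. Those compared were list members at least 1.5-fold apart in pDCs and the genes whose pDC interval lay farthest from 0, without ribosomal genes. Of these 46 genes, 6 had log2 ratios of DKO over control on opposite sides of 0 with both intervals off 0. Some named genes left out met this rule too. Siglech, for example, was at 0.21 (interval 0.12 to 0.30) in pDCs and -1.55 (interval -2.81 to -0.65) in Ly6C-high monocytes. There was 1 library per genotype, and the differences between the sets were not tested. Ly6c2 was at -1.03 in pDCs and 0.092 (interval 0.02 to 0.17) in B-lineage cells. Herpud1 was at -0.67 in pDCs, 0.16 (interval 0.01 to 0.32) in Ly6C-high monocytes and 0.50 (interval 0.41 to 0.59) in B-lineage cells. Igkc was at -1.32 in pDCs and 0.32 (interval 0.31 to 0.32) in B-lineage cells, which express it. Slfn2 was at -0.65 in pDCs and 0.12 (interval 0.04 to 0.20) in monocytes, and Nfkbia at -0.81 and 0.46 (interval 0.35 to 0.58). Dut was at -0.70 in pDCs and 0.77 (interval 0.31 to 1.26) in conventional dendritic cells. However, 32.9% of its control UMIs in pDCs lay in the cells with at least 10 Lyz2 UMIs, and without those cells its interval in pDCs (-0.82 to 0.22) included 0.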

How the results depend on the processing

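With 1 library per genotype no replicate could be left out. No paired analysis was possible because each genotype had 1 library. The pDC share in control and DKO barcodes was 1.26% and 0.579% with the rule applied after thinning, 2.62% and 1.29% among barcodes under 20% hemoglobin, and 1.22% and 0.539% without pDCs that held markers of another lineage. Genes at least 1.5-fold higher and lower numbered 187 and 258 with median-ratio scaling, 778 and 396 at a minimum mean of 20 CPM, 120 and 74 at 100 CPM, and 144 and 146 with the length trend removed, and the higher share of these was 42.0% with median-ratio scaling and 49.7% without the trend. List medians moved beyond the median lower or upper bound of their members' intervals in these cases. These bounds are not a counting interval of the list median. Shifts inside them are not listed here, such as MHC class I genes at -0.28 without the length trend. Without the length trend, transcription factors were at 0.064, mitochondrially encoded genes at 0.39 and ribosomal protein genes at 0.10, a reversal, as were Ccr9 at -0.19 and Ncald at -0.092. With the rule after thinning, MHC class II genes were at -0.10, BCL2 family genes at -0.21 and ribosomal protein genes at -0.022, the last at -0.24 with median-ratio scaling. Mitosis genes were at 0.36 with the 20 CPM minimum, 1.04 without Lyz2-high cells and 0.88 without other-lineage pDCs, replication genes at 0.15 without Lyz2-high cells and lymphoid genes at -0.013 without other-lineage pDCs. The cycling share was 6.5% and 0% with the rule after thinning and 22.8% and 26.7% unthinned.

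The alternatives on Lyz2 (10 UMIs), ribosomal UMIs (5%), gene length and the narrower lineage filter (erythroid and neutrophil lists not counted, 241 and 75 pDCs) were chosen after seeing the data. The planned filter on 2 markers of another lineage left 12 control and 3 DKO pDCs and is not reported, under a minimum of 50 cells set after that was seen. Scrublet's own threshold marked 0 control barcodes, so the DKO threshold was used for both, and it marked 1.59% and 1.42% of barcodes, with 4 and 0 pDCs. Depth limits the sensors, Tlr9, Cgas and the interferon genes.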

Other observations

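Variation between single pDCs was described by the Fano factor (variance over mean of UMIs per cell) in cells thinned to 2000 UMIs, which is 1 for pure counting. Over 2960 genes with a thinned mean of at least 0.1 UMIs the median was 1.07 in control and 1.09 in DKO pDCs. The myeloid genes S100a9 (12.6 and 13.1) and Lyz2 (12.4 and 23.4) and the nuclear RNA Malat1 (11.4 and 14.2) were far above it, and the part of the Lyz2-high and ribosomal-low cells in these values was not tested. Among genes of pDC function, the factor was 7.68 and 6.41 for Cd74, 5.43 and 3.76 for Ly6d and 3.54 and 4.19 for Runx2. It was 3.12 and 2.86 for Ly6c2 and 2.97 and 5.01 for Ly6a. Klk1 was at 3.46 and 5.31, values that the choice of cells touches because the rule used this gene. Within each library cells thus differed in Cd74 and Ly6d by more than pure counting gives, and no difference of the factor between libraries was tested.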
